A study of Homo sapiens with 12 samples.

Results

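The 50 genes described here copy the genome or separate it, and they were picked by name from the 28278 genes of the count table. From their known roles, 24 were counted as G1/S genes, which prepare and carry out DNA replication, and 26 as G2/M genes, which drive and build mitosis. The counts came from WA09-Islet1-GFP, a wild-type human embryonic stem cell line that turns on GFP along with Islet1, a transcription factor of motor neurons, and that was differentiated toward motor neurons. The cultures were given cis-chlordane, an organochlorine pesticide, at 10 µM (the concentration in the labels; the study's methods state another), or the same volume of the solvent DMSO, for 16 hours, and were then split by FACS on the GFP signal. The 4 groups were therefore wild-type GFP-negative cells with DMSO (control GFP-negative), GFP-negative cells with cis-chlordane (treated GFP-negative), GFP-positive cells with DMSO (control GFP-positive) and GFP-positive cells with cis-chlordane (treated GFP-positive), each with 3 libraries that the study's methods define as independent thaws of stored cells. All the cells derive from 1 stem cell line, and since the word untreated opens every library's title, groups were read from the treatment entry instead.

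Cells that divide license their replication origins in G1 by loading the MCM2 to MCM7 helicase with the help of CDC6 and CDT1, fire those origins in S phase through CDC45 and the GINS complex, and then build the spindle under cyclin A, cyclin B, CDK1, Polo and Aurora kinases. E2F transcription factors drive the genes of the S phase program, while MYBL2 and FOXM1 drive those of G2 and mitosis, and a cell that leaves the cycle shuts down both. Despite that role, MYBL2 was counted here with the G1/S genes, and FOXM1 with the G2/M genes. Motor neurons are postmitotic, so in a differentiating culture these transcripts mark chiefly the progenitors that still divide.

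Library totals ran from 23414935 to 38347050 counts, and levels are given as CPM, counts relative to the library's total after TMM scaling over the 12 libraries, listed in the order of replicates 1, 2 and 3. ISL1 separated the fractions in every library: it was at 66.1, 62.5 and 68.9 CPM in control GFP-positive and 2.497, 2.41 and 2.77 CPM in control GFP-negative cells, and at 8.02, 15.4 and 12.5 CPM against 0.387, 0.692 and 0.567 CPM after treatment. Of 8 motor neuron markers with ISL1 among them, by the test and limits given below, 7 were higher and 1 lower in GFP-positive cells in solvent (7.47% and 15.3% of all genes). After treatment 5 were higher and 1 lower (10.0% and 13.7% of all genes). The progenitor marker SOX2 was at 96.5 to 122.5 CPM in the GFP-negative libraries and 11.5 to 17.8 CPM in the GFP-positive ones. Of 6 pluripotency markers, POU5F1, NANOG and TDGF1 had 3 counts or fewer in every library. The 6 together were not absent, at 218 to 258 CPM in control GFP-negative and 155 to 171 CPM in control GFP-positive cells. Control GFP-negative replicate 3 stood apart, with 492.8 CPM of the globin gene HBA1, 28.1 CPM of the leukocyte gene PTPRC and 18.1 CPM of the endothelial gene PECAM1, against at most 20.2, 0.990 and 0.818 CPM in the other 11 libraries. The counts of changed genes that rest on that library are therefore also given without it.

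Promoter letters are shown for a few of these genes because the 2 classes differ in them. The 250 bases before the RefSeq start of 41 of the 50 genes, and of 27305 promoters in all, were searched on both strands for an E2F motif (TTTCCCGC, TTTCGCGC, TTTGCCGC or TTTGGCGC), a cell cycle homology region or CHR (TTTGAA or TTTAAA, the second being its own reverse complement) and a CCAAT box. The E2F letters stood before 10 of 20 G1/S genes (50%), 2 of 21 G2/M genes (9.52%) and 2.79% of all promoters. The CHR letters showed the opposite split, with 3 of 20 G1/S genes (15%), 14 of 21 G2/M genes (66.7%) and 22.1% of all promoters. A CCAAT box was as common in each class, in 70% of G1/S and 71.4% of G2/M genes against 33% of all promoters, but CHR and CCAAT letters together were in 12 of the G2/M genes (57.1%), 2 of the G1/S genes (10%) and 7.85% of all promoters. The last 150 bases before the start are printed 5′ to 3′ from RefSeq on GRCh38.p14, in lower case with the matches in capitals, for TYMS at chr18:657503-657652 (plus strand), CCNE1 at chr19:29811841-29811990 (plus strand), CCNB1 at chr5:69167000-69167149 (plus strand), CCNB2 at chr15:59104996-59105145 (plus strand) and CDC20 at chr1:43358831-43358980 (plus strand).
TYMS: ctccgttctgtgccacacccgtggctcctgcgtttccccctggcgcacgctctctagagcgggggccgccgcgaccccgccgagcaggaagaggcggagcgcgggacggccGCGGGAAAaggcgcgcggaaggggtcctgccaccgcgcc
CCNE1: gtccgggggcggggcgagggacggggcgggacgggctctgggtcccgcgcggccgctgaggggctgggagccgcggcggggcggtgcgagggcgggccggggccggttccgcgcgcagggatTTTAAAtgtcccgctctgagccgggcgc
CCNB1: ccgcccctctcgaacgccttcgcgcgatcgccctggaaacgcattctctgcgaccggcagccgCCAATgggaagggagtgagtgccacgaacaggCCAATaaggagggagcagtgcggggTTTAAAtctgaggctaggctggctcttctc
CCNB2: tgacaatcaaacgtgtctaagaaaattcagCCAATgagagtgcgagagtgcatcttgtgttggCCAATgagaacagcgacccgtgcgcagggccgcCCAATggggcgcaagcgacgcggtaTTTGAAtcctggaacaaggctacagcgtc
CDC20: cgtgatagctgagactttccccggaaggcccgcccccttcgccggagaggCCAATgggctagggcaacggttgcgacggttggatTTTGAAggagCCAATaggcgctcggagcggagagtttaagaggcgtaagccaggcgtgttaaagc
TYMS carries an E2F match on the minus strand that begins 39 bases before its start, and CCNE1 carries none of the E2F words but a TTTAAA that begins 28 bases before it. In CCNB1, CCNB2 and CDC20 a CHR match begins 30, 29 and 65 bases before the start with CCAAT boxes upstream of it, and CDC20 has a further CCAAT box between its CHR match and the start. Not every gene carries the letters of its class this close to the start. The last 150 bases before AURKB, a G2/M gene, hold no whole match. Those before MCM3, a G1/S gene, hold CCAAT boxes but no E2F match. Such matches describe the letters only.

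**Figure D1:**
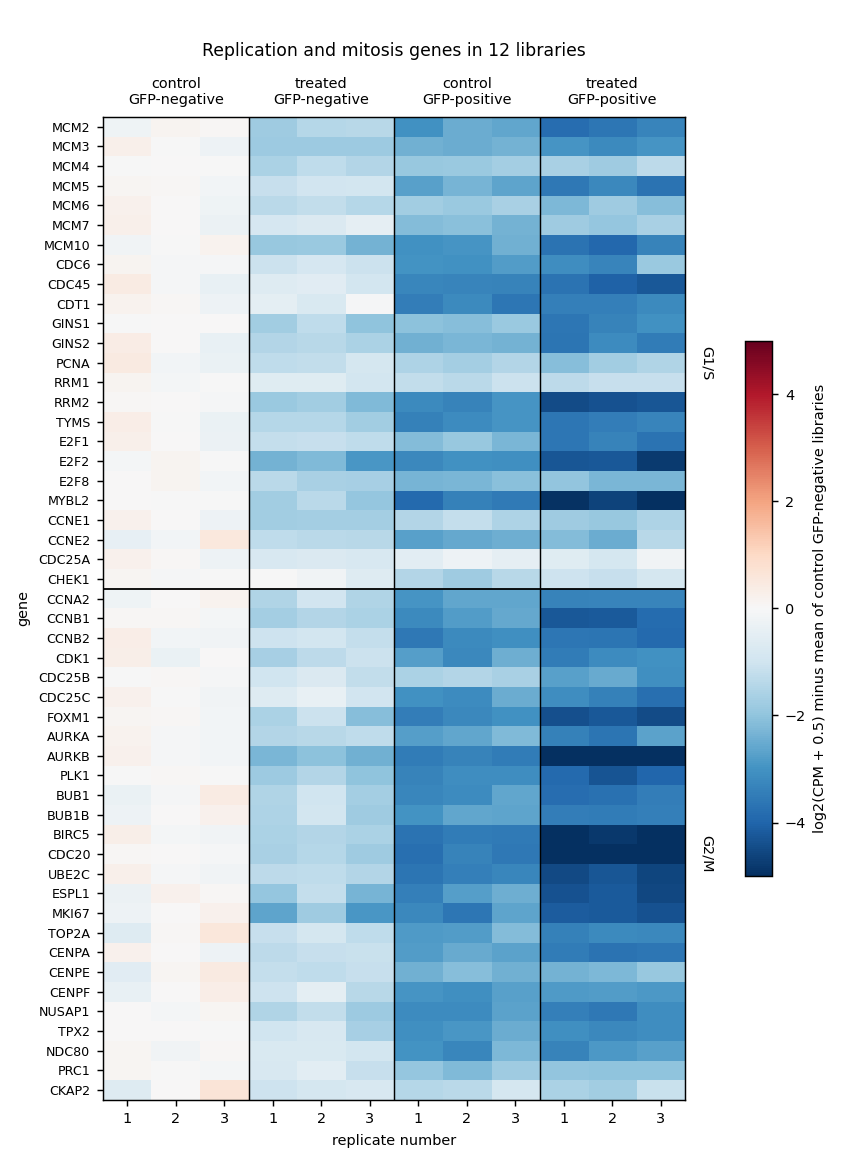
Each row is a gene and each column a library (replicates 1 to 3 of the 4 groups), with color showing log2(CPM + 0.5) minus the mean of the 3 control GFP-negative libraries (colors end at -5 and 5). G1/S genes are above the line and G2/M genes below it; the control GFP-negative columns are near 0 and the other 9 columns are blue for nearly every gene.

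The comparison of sort fractions in solvent asks how far the program was off in Islet1-expressing cells without pesticide. All 50 genes were lower in control GFP-positive than in control GFP-negative cells, and 49 of them passed as differentially expressed genes (DEGs: a fold change of 2 or more with an adjusted p under 0.05, by the edgeR quasi-likelihood test with Benjamini-Hochberg correction across all genes), against 15.3% of all 15404 genes tested that were lower. The median log2 fold change was -2.61 for the 24 G1/S genes and -3.10 for the 26 G2/M genes, against -0.02 for all genes. None was higher (7.47% of all genes), at an unadjusted p under 0.05 or by DESeq2 either, and the values of the 2 fractions did not overlap for any of the 50 (23.8% of all genes were lower without overlap). The same number, 49, passed without control GFP-negative replicate 3. The 49 include E2F8, at 1 to 4 counts per control GFP-positive library, and CCNE2, at 7 to 13, which passed the filter through their GFP-negative counts. A filter of at least 10 counts in every library, which leaves out both, gave 47, 21 G1/S and 26 G2/M genes, against 1931 of all 13864 genes lower. The class medians were then -2.54 and -3.12. In bulk RNA, fewer cycling cells in a fraction and less of each transcript per cell cannot be told apart.

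BIRC5, which encodes survivin of the chromosomal passenger complex, had the largest fall among G2/M genes, from 402, 303 and 287 CPM in control GFP-negative to 24.5, 28.2 and 27.4 CPM in control GFP-positive cells (log2 fold change -3.74 ± 0.17, adjusted p = 8.7e-07; errors of fold changes are SE throughout). AURKB, the kinase of that complex, was at 70.3, 57.3 and 54.3 against 4.85, 5.46 and 4.82 CPM (-3.70 ± 0.18, adjusted p = 8.7e-07). CDC20, the activator of the anaphase ubiquitin ligase, was at 317, 308 and 293 against 22.2, 29.5 and 25.4 CPM (-3.69 ± 0.16, adjusted p = 8.7e-07). For each of these genes every GFP-positive library was far below every GFP-negative one.

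Among G1/S genes, MYBL2, a transcription factor that carries the program into G2, was at 393, 383 and 378 against 25.7, 36.8 and 32.98 CPM (-3.71 ± 0.17, adjusted p = 8.7e-07). CDC45, part of the active helicase, was at 44.5, 32.1 and 25.4 against 3.02, 2.93 and 2.86 CPM (-3.64 ± 0.24, adjusted p = 2.7e-06), and CDT1, the licensing factor, at 156, 145 and 117 against 12.3, 14.96 and 10.8 CPM (-3.56 ± 0.18, adjusted p = 9.1e-07). E2F8, a repressor of the E2F family, was near the limit of counting, with 2.201, 2.47 and 1.94 CPM in GFP-negative cells and 1 to 4 counts in each GFP-positive control library, so no fold change is given. CDC25A, the phosphatase that activates CDK2 at the G1/S border, was the gene that did not pass: it was at 78.5, 71.5 and 57.1 against 47.1, 56.9 and 49.9 CPM (-0.54 ± 0.16, adjusted p = 0.021), lower in every GFP-positive library but by less than a fold change of 2.

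**Figure D2:**
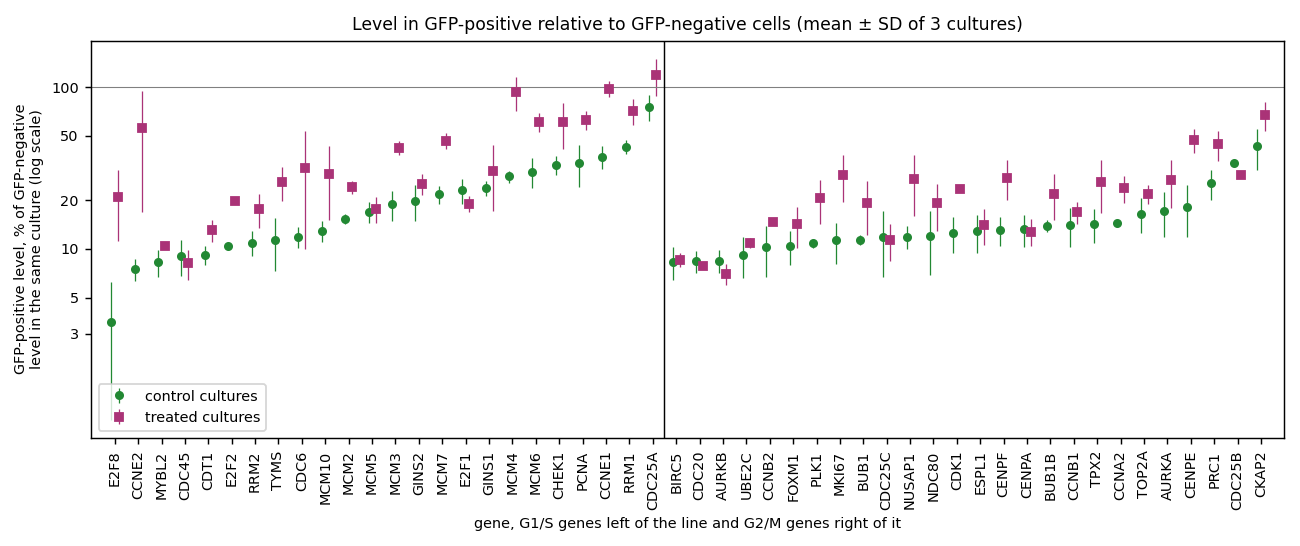
The vertical axis gives the CPM of each gene in GFP-positive cells as a percent of its CPM in GFP-negative cells of the same culture, read from treatment and replicate number (log scale, mean ± SD of 3 cultures). Control cultures are green circles and treated cultures purple squares, and the horizontal axis lists the G1/S genes and then the G2/M genes. Control values center near 17.9% for G1/S and 12.7% for G2/M genes, and the treated values of CDC25A, CCNE1 and MCM4 lie near the line at 100%.

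Libraries of the same treatment and replicate number were read as the same culture. Taken per culture, the GFP-positive level was a median of 17.9% of the GFP-negative level for G1/S genes and 12.7% for G2/M genes in control cultures. Leaving E2F8 aside, G1/S genes ran from 7.499% ± 1.202 for CCNE2 to 75.7% ± 14.1 for CDC25A (SD, n = 3), and G2/M genes from 8.33% ± 1.93 for BIRC5 to 43.1% ± 12.2 for CKAP2. The G2/M genes were the more even class, with their middle 50% between 10.9% and 14.4%, where that of the G1/S genes lay between 10.8% and 28.6%. Of the genes commonly read as markers of division, MKI67 was at 11.3% ± 3.18, TOP2A at 16.5% ± 3.997, PCNA at 34.1% ± 9.94, MCM2 at 15.3% ± 1.103, CCNB1 at 14.1% ± 3.78 and CDK1 at 12.6% ± 3.17. The 15 neural progenitor markers moved the same way in sum, from 6761 to 9085 CPM in control GFP-negative to 3488 to 3818 CPM in control GFP-positive cells. Of the 14 tested, 12 were DEGs lower in GFP-positive cells and none was a DEG higher (15.3% and 7.47% of all genes). At an adjusted p under 0.05 but under the fold limit, 1 marker was higher (log2 fold change 0.92). The part of progenitors left in the positive gate was not tested.

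Levels can be compared between genes only per length of transcript. In control GFP-negative cells the highest levels per kilobase of the MANE transcript were those of MCM7 (258 ± 50.2 CPM per kb, mean ± SD, n = 3), UBE2C (226 ± 37.8), CDC20 (186 ± 7.32) and MYBL2 (144 ± 2.86). The spread of MCM7 covered the mean of UBE2C, so the order of these neighbours is not resolved. The lowest were E2F8 (0.594 ± 0.0712), CCNE2 (1.77 ± 0.687) and CENPE (1.78 ± 0.607). Of the pair of cyclin E genes, CCNE1 was the higher per kilobase (14.9 ± 2.48).

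The next comparison asks what cis-chlordane did to these genes in the GFP-negative cells, where the program was running. All 50 were lower in treated than in control GFP-negative cells and 40 passed as DEGs, 18 of 24 G1/S genes and 22 of 26 G2/M genes, against 9.75% of all 15513 genes tested that were lower. The median log2 fold change was -1.51 for G1/S and -1.41 for G2/M genes, and -0.01 for all genes tested.
No gene was higher (8.59% of all genes were), also at an unadjusted p under 0.05 or by DESeq2, and 48 of the 50 did not overlap between treated and control libraries (22.4% of all genes were lower without overlap). Without control GFP-negative replicate 3 the count was 38. With a stricter test against a fold change of 2 (glmTreat) 19 genes passed, against 366 of all 15513 genes that were lower. Of the 14 tested progenitor markers 10 were lower and none higher among DEGs, with a median log2 fold change of -1.38, while SOX2 was at 96.5 to 122.5 CPM over the 6 libraries and the summed level of the list, most of it VIM, overlapped (6761 to 9085 CPM in control and 7591 to 8587 CPM in treated cells). Markers of other cells moved too. The summed motor neuron list went from 299.6 to 343 CPM in control to 109 to 144 CPM in treated cells (5 of 8 tested lower), the neuron list from 10320 to 10910 CPM to 6279 to 6611 CPM (1 of 11 lower and 1 higher) and the mesenchymal list from 761 to 887 CPM to 469.5 to 763 CPM with overlap (3 of 7 lower). The endothelial and blood list was at 11.4 to 549 CPM against 108 to 129 CPM (KDR, a vascular growth factor receptor, higher of 5 tested, with HBG1 and AIF1 at 3 counts or fewer). The glia list went from 29.0 to 42.9 CPM to 5.50 to 9.03 CPM (1 of 3 tested lower and 1 higher). The pluripotency list went from 218 to 258 CPM to 112 to 154 CPM (1 of 2 tested lower). The part of a changed cell mixture in the fall of these 50 genes was not tested.

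Of the 12 genes of licensing and the helicase, 9 fell. MCM10, which helps activate the helicase, had the largest change, from 24.5, 27.1 and 31.2 CPM in control to 7.01, 7.21 and 4.93 CPM in treated cells (-2.13 ± 0.22, adjusted p = 0.00015). MCM3 went from 170.5, 140.4 and 117 to 40.2, 39.9 and 39.3 CPM (-1.87 ± 0.18, adjusted p = 9.3e-05) and MCM2 from 257, 325 and 306 to 86.05, 109 and 113 CPM (-1.55 ± 0.17, adjusted p = 0.00021), both subunits of the MCM ring. Of the 6 ring subunits, the DEGs MCM2, MCM3, MCM4, MCM5 and MCM6 had log2 fold changes from -1.87 to -1.04 and MCM7 did not reach the fold limit (-0.71 ± 0.18, adjusted p = 0.016). GINS1 (-1.70 ± 0.22), GINS2 (-1.55 ± 0.20) and CDC6 (-1.05 ± 0.17), which loads the ring, fell as well. CDC45 (-0.78 ± 0.23, adjusted p = 0.029) and CDT1 (-0.45 ± 0.20, adjusted p = 0.12) were not called.

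All 4 S phase transcription factors fell. E2F2, an activator E2F, was at 34.6, 40.3 and 36.4 CPM in control and 6.88, 7.58 and 4.504 CPM in treated cells, the largest log2 fold change of the 50 genes (-2.58 ± 0.23, adjusted p = 7.9e-05). E2F8 was at 2.201, 2.47 and 1.94 against 0.559, 0.364 and 0.355 CPM (-2.39 ± 0.38, adjusted p = 0.0013), on 10 to 13 counts per treated library. E2F1, the other activator, fell less (-1.25 ± 0.17), and MYBL2 lay between (-1.68 ± 0.18). Treated and control libraries did not overlap for any of the 4.

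Of the 4 genes of the fork clamp and nucleotide supply, 3 fell. RRM2, the regulated subunit of ribonucleotide reductase, went from 159, 153 and 145 to 41.9, 45.8 and 32.7 CPM (-1.95 ± 0.17, adjusted p = 7.4e-05), while RRM1, its stable partner subunit, fell short of the fold limit (-0.73 ± 0.16, adjusted p = 0.008). TYMS, thymidylate synthase, went from 163, 125 and 103.1 to 46.9, 46.99 and 37.98 CPM (-1.59 ± 0.20, adjusted p = 0.00044). PCNA, the sliding clamp, went from 144, 97.7 and 84.8 to 44.3, 45.02 and 57.2 CPM (-1.18 ± 0.22, adjusted p = 0.0031). The PCNA level differed most among controls, being highest in replicate 1, yet every treated library was below every control one.

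Cyclin E fell with them. CCNE1, at chr19:29811991-29824312 on the plus strand (hg38, GENCODE 44), went from 33.9, 29.6 and 24.2 to 8.43, 8.45 and 8.65 CPM (-1.80 ± 0.19, adjusted p = 0.00019), and the 3 treated libraries were nearly equal. CCNE2, at chr8:94879770-94896678 on the minus strand, went from 3.29, 4.14 and 6.81 to 1.59, 1.46 and 1.42 CPM (-1.69 ± 0.35, adjusted p = 0.0052). CDC25A (-0.82 ± 0.17, adjusted p = 0.0053) fell short of the fold limit, and CHEK1, the checkpoint kinase of stalled forks, had the smallest change of the 50 (-0.28 ± 0.20, adjusted p = 0.32), with overlapping values.

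In G2/M, 6 of the 7 mitotic cyclins, CDK1 and their activators fell. CCNB1, cyclin B1, went from 179.5, 179.7 and 161 to 53.01, 61.7 and 57.8 CPM (-1.62 ± 0.15, adjusted p = 8.1e-05), CCNB2 from 111, 80.02 and 77.5 to 43.2, 46.04 and 38.1 CPM (-1.10 ± 0.19, adjusted p = 0.002) and CDK1, their kinase, from 30.6, 19.8 and 25.3 to 7.44, 9.799 and 11.4 CPM (-1.42 ± 0.24, adjusted p = 0.0017). CCNA2 (-1.35 ± 0.21), FOXM1 (-1.56 ± 0.24) and CDC25B (-1.003 ± 0.17), a phosphatase that activates CDK1, fell too, and CDC25C did not reach the fold limit (-0.69 ± 0.22, adjusted p = 0.036).

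All 6 mitotic kinase and checkpoint genes fell, as did all 3 genes that trigger anaphase. AURKB, at chr17:8204733-8210600 on the minus strand, went from 70.3, 57.3 and 54.3 to 12.1, 14.1 and 10.8 CPM (-2.32 ± 0.19, adjusted p = 4.8e-05). PLK1, the Polo kinase, went from 215, 226 and 219 to 61.8, 78.5 and 54.6 CPM (-1.78 ± 0.17, adjusted p = 0.00011), and ESPL1, separase, which cuts cohesin, from 36.6, 53.1 and 47.5 to 11.4, 19.7 and 8.69 CPM (-1.81 ± 0.30, adjusted p = 0.0018). BIRC5 (-1.58 ± 0.17), BUB1 (-1.46 ± 0.26), BUB1B (-1.44 ± 0.25), AURKA (-1.43 ± 0.17), CDC20 (-1.63 ± 0.15) and UBE2C (-1.39 ± 0.17) fell by similar amounts. Of the 10 genes of chromosomes, kinetochore and spindle, 7 fell, led by MKI67, the Ki-67 antigen of dividing nuclei, at chr10:128096659-128126423 on the minus strand, from 142, 169.8 and 193 to 26.7, 47.97 and 21.5 CPM (-2.42 ± 0.29, adjusted p = 0.00034). TOP2A, the topoisomerase that untangles sister chromatids, went from 74.8, 122 and 170 to 51.9, 62.9 and 47.4 CPM (-1.20 ± 0.27, adjusted p = 0.0086), with controls that spread widely. CENPF (-0.98 ± 0.26, adjusted p = 0.018), NDC80 (-0.88 ± 0.19, adjusted p = 0.0074) and PRC1 (-0.84 ± 0.19, adjusted p = 0.0085), proteins of the kinetochore and the midzone, stayed within a fold change of 2.

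The spread among libraries of a group went along with transcript length. Across the 50 genes, the log2 ratio of replicate 3 to replicate 1 had a Spearman correlation of 0.62 with MANE transcript length, and across 10593 genes of at least 5 CPM one of 0.64. In control GFP-negative cells long transcripts such as TOP2A, CENPE and CENPF read highest in replicate 3 and short ones such as PCNA and CCNB2 in replicate 1. The trend was not particular to that group: over those 10593 genes, the 12 pairs of libraries within the 4 groups gave correlations from -0.49 to 0.66, with 0.55 for replicate 3 over 1 and 0.49 for replicate 3 over 2 in control GFP-positive cells. All genes of a ratio come from the same pair of libraries and are not replicates. Between group means, the same correlation was -0.06 in GFP-negative and 0.08 in GFP-positive cells for treated over control.

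The same test was made in GFP-positive cells, where these transcripts were already low. There 15 of the 49 genes tested were DEGs lower in treated cells, 6 G1/S and 9 G2/M genes, against 11.2% of all 15333 genes tested, and CCNE2 was a DEG higher in treated cells (12.8% of all genes). E2F8 was not tested, since its counts did not pass the filter. The median log2 fold change was -0.29 for G1/S and -0.67 for G2/M genes, against 0.03 for all genes tested. Lower values without overlap were found for 28 of the 49 (30.8% of all genes), 11 G1/S and 17 G2/M genes. With glmTreat 3 genes passed lower and none higher, against 728 lower and 920 higher of all 15333 genes. Nothing is read from so few genes. The summed progenitor list went from 3488 to 3818 CPM to 2615 to 3470 CPM, with 5 of 14 markers lower and 1 higher, and SOX2 was at 11.5, 12.2 and 17.8 CPM in control and 12.4, 11.8 and 15.4 CPM in treated cells. The summed motor neuron list went from 1721 to 1930 CPM in control to 510.0 to 704 CPM in treated cells (6 of 8 tested lower), the neuron list from 26930 to 28460 CPM to 14580 to 19440 CPM (3 of 11 lower) and the mesenchymal list from 261 to 328 CPM to 50.2 to 82.3 CPM (3 of 3 lower). The endothelial and blood list went from 1.98 to 2.64 CPM to 7.496 to 13.03 CPM (KDR higher and CDH5 lower of 3 tested, with PTPRC, HBG1 and AIF1 at 3 counts or fewer). The glia list went from 2.80 to 3.34 CPM to 0.605 to 1.15 CPM (1 of 1 tested lower). The pluripotency list went from 155 to 171 CPM to 49.0 to 60.9 CPM (1 of 2 tested lower). The part of these cells in the result was not tested.

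The DEGs lower in treated GFP-positive cells were all DEGs lower in treated GFP-negative cells as well: GINS1, GINS2, RRM2, E2F1, E2F2 and MYBL2 among G1/S genes, and MKI67, CCNB1, CDC20, CDC25B, AURKB, BIRC5, CENPA, FOXM1 and ESPL1 among G2/M genes. AURKB went from 4.85, 5.46 and 4.82 CPM in control to 0.991, 0.8904 and 0.711 CPM in treated GFP-positive cells (-2.47 ± 0.31, adjusted p = 2.6e-08), the largest change. ESPL1 went from 3.77, 6.19 and 7.94 to 1.74, 2.01 and 1.47 CPM (-1.70 ± 0.29, adjusted p = 9e-06) and CDC20 from 22.2, 29.5 and 25.4 to 7.78, 9.11 and 6.79 CPM (-1.63 ± 0.20, adjusted p = 2.5e-08). For all 3, no treated library reached the lowest control.

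BIRC5 went from 24.5, 28.2 and 27.4 to 9.37, 11.1 and 8.47 CPM (-1.40 ± 0.20, adjusted p = 2.7e-07), MKI67 from 17.7, 13.1 and 26.5 to 8.77, 8.73 and 7.58 CPM (-1.12 ± 0.22, adjusted p = 7.2e-05) and CCNB1 from 18.8, 24.8 and 29.1 to 8.62, 9.02 and 11.5 CPM (-1.24 ± 0.21, adjusted p = 5.2e-06). The MKI67 level spread over a factor of about 2 among controls and was even among treated libraries. TOP2A went from 15.7, 16.4 and 25.7 to 10.8, 12.3 and 12.03 CPM (-0.64 ± 0.21, adjusted p = 0.0095), below the fold limit. CCNB2 was at 6.86, 9.36 and 10.1 against 6.67, 6.52 and 5.55 CPM (-0.42 ± 0.22, adjusted p = 0.12) and CDK1 at 3.21, 2.18 and 4.12 against 1.77, 2.35 and 2.58 CPM (-0.42 ± 0.30, adjusted p = 0.25). For CDK1 the groups overlapped.

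Of the 3 S phase transcription factors tested, all fell. E2F2 went from 3.505, 4.07 and 3.95 to 1.41, 1.47 and 0.869 CPM (-1.55 ± 0.31, adjusted p = 8.1e-05) and E2F1 from 26.7, 32.3 and 24.1 to 9.46, 11.6 and 8.79 CPM (-1.41 ± 0.20, adjusted p = 3.4e-07). MYBL2 went from 25.7, 36.8 and 32.98 to 11.98, 15.2 and 11.1 CPM (-1.25 ± 0.20, adjusted p = 2.4e-06). GINS1, of the helicase complex, went from 8.84, 8.43 and 10.4 to 2.67, 3.42 and 4.24 CPM (-1.34 ± 0.24, adjusted p = 1.9e-05), and for these 4 genes no treated library reached a control one.

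Most other replication genes were not called. MCM2 went from 36.1, 52.6 and 47.9 to 20.8, 23.7 and 29.5 CPM (-0.81 ± 0.19, adjusted p = 0.0005), below the fold limit, and PCNA was at 35.7, 32.3 and 37.8 against 23.6, 31.5 and 37.2 CPM (-0.12 ± 0.19, adjusted p = 0.61), with overlap. MCM7 was higher in treated cells without overlap but under the fold limit, at 141, 147 and 122 against 184, 163 and 205 CPM (0.50 ± 0.16, adjusted p = 0.0085), and so was CHEK1, at 10.7, 8.48 and 11.2 against 14.9, 13.5 and 16.2 CPM (0.62 ± 0.20, adjusted p = 0.01). CCNE2 was called higher, at 0.261, 0.349 and 0.418 against 0.631, 0.402 and 1.42 CPM (1.32 ± 0.50, adjusted p = 0.026), on 7 to 13 counts per control and 14 to 54 counts per treated library. Its treated replicate 2 lay below control replicate 3, the highest value came from treated replicate 3, and without that library the log2 fold change was 0.64 with an adjusted p of 0.37. The call was also lost without control replicate 1 or 2 and by DESeq2 (adjusted p = 0.089). By annotation, 37% of the exon bases of CCNE2 are shared with INTS8 on the other strand, a gene at 20.96, 19.3 and 27.4 CPM in control and 20.7, 16.7 and 17.9 CPM in treated GFP-positive cells, and the strand setting of the counting is not given in the sources used here, so counts of CCNE2 at this level are uncertain.

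Whether the response differed between the fractions was tested by the interaction, the treatment response in GFP-positive minus that in GFP-negative cells, over all 12 libraries and called at an adjusted p under 0.05 with no fold limit. It was higher for 8 of the 50 genes, 7 G1/S genes and 1 G2/M gene, against 0.968% of all 16226 genes tested, and lower for none (1.22% of all genes; none at an unadjusted p under 0.05 or by DESeq2). The median was 0.88 on the log2 scale for G1/S and 0.63 for G2/M genes, and -0.05 for all genes. Libraries of the same treatment and replicate number were read as sorts of the same culture, which the titles do not state. With that culture as a block the test called 21 genes higher, 13 G1/S and 8 G2/M, against 3.20% of all genes, and none lower (4.59%). The additional genes were CHEK1, E2F2, MCM2, MCM10, PCNA and RRM1 of the G1/S class and CDK1, CENPF, MKI67, NUSAP1, PLK1, PRC1 and TPX2 of the G2/M class. Without control GFP-negative replicate 3 there were 8 genes, with PCNA in place of CENPE. Over the 12 fits that each left out a library the count ran from 3 to 9, and CCNE1, MCM3 and MCM4 were called in every one.

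**Figure D3:**
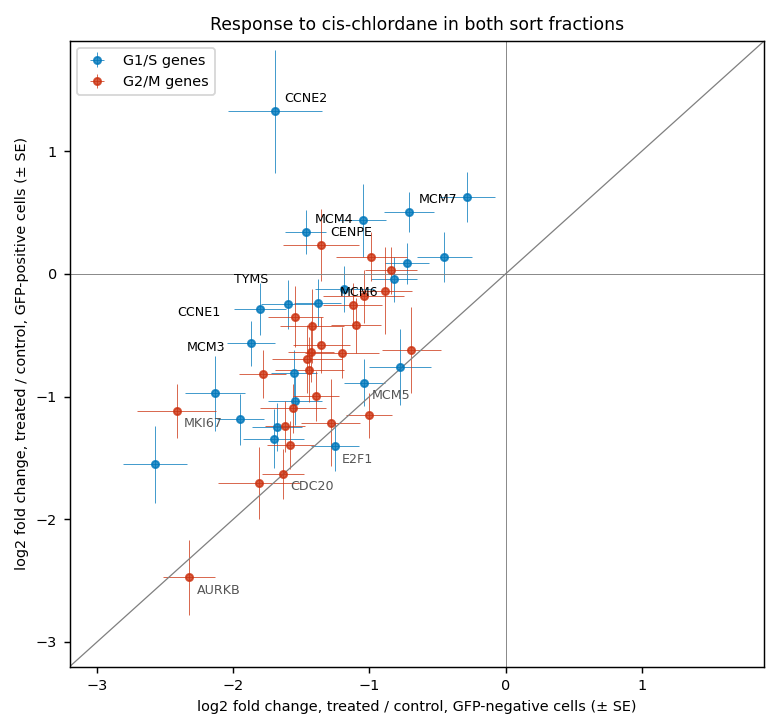
Each point is a gene, with the log2 fold change of treated over control in GFP-negative cells on the horizontal axis and in GFP-positive cells on the vertical axis (bars: SE), G1/S genes in blue and G2/M genes in red, and equal responses on the diagonal; black names are the 8 genes of the interaction, grey names are for orientation. AURKB, CDC20 and E2F1 lie at the diagonal, and MCM4, CCNE1 and MCM3 lie well above it.

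MCM4, at chr8:47960185-47978160 on the plus strand, had the smallest adjusted p of the 50 genes. It stood at 128, 132 and 127 CPM in control and 42.5, 53.2 and 46.5 CPM in treated GFP-negative cells, and at 33.9, 35.6 and 39.3 CPM in control and 41.3, 36.99 and 52.4 CPM in treated GFP-positive cells. It thus fell in GFP-negative cells (-1.47 ± 0.15) and gave 0.34 ± 0.18 in GFP-positive cells, where the groups overlapped, an interaction of 1.72 ± 0.22, adjusted p = 0.0009. CCNE1 fell to 8.43, 8.45 and 8.65 CPM in treated GFP-negative cells, and in GFP-positive cells was at 10.3, 12.3 and 9.55 CPM in control and 8.08, 7.41 and 9.55 CPM in treated cells (-0.29 ± 0.21, adjusted p = 0.26; interaction 1.43 ± 0.26, adjusted p = 0.0099). After treatment the CCNE1 values of the fractions overlapped.

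MCM3, at chr6:52264014-52284881 on the minus strand, was at 170.5, 140.4 and 117 against 40.2, 39.9 and 39.3 CPM in GFP-negative cells, and in GFP-positive cells was at 26.3, 25.1 and 27.3 CPM in control and 17.7, 14.9 and 17.9 CPM in treated cells (-0.57 ± 0.19, adjusted p = 0.011; interaction 1.21 ± 0.22, adjusted p = 0.0099). MCM6 was at 95.1, 83.3 and 70.6 against 32.5, 34.8 and 30.04 CPM in GFP-negative and 24.7, 22.4 and 26.3 against 16.9, 23.8 and 18.6 CPM in GFP-positive cells (interaction 1.06 ± 0.24, adjusted p = 0.034), and MCM7 was at 759, 642 and 512 against 348, 383 and 462 CPM in GFP-negative cells (interaction 1.12 ± 0.23, adjusted p = 0.021). Another ring subunit, MCM5, had log2 fold changes of -1.04 ± 0.15 in GFP-negative and -0.89 ± 0.19 in GFP-positive cells (interaction 0.06 ± 0.22, adjusted p = 0.93), so the difference was not past the threshold. The same held for CDC20 (-0.09 ± 0.22, adjusted p = 0.89), AURKB (-0.24 ± 0.26, adjusted p = 0.7) and E2F1 (-0.24 ± 0.25, adjusted p = 0.68).

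TYMS was at 12.04, 14.1 and 16.1 CPM in control and 10.00, 11.2 and 12.6 CPM in treated GFP-positive cells (-0.25 ± 0.20, adjusted p = 0.31; interaction 1.26 ± 0.27, adjusted p = 0.023). It shares 39.9% of its exon bases with ENOSF1 on the other strand, at 18.00, 17.5 and 16.8 CPM in control and 11.6, 13.3 and 11.2 CPM in treated GFP-negative cells, lower without overlap, and 4.85, 3.14 and 4.28 CPM in control and 5.95, 6.32 and 4.16 CPM in treated GFP-positive cells, with overlap. The part of ENOSF1 reads in the TYMS values was not tested. CCNE2 had an interaction of 2.93 ± 0.63, adjusted p = 0.026 and is subject to the counts and overlap given above. CENPE, the kinetochore motor, was at 9.72, 15.8 and 20.03 against 6.02, 5.79 and 6.28 CPM in GFP-negative and 2.39, 2.96 and 2.31 against 2.402, 2.67 and 3.501 CPM in GFP-positive cells (interaction 1.50 ± 0.37, adjusted p = 0.047), and lost the call when any of 11 libraries was left out. CCNE2, MCM6, MCM7 and TYMS lost it in some of those fits.

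**Figure D4:**
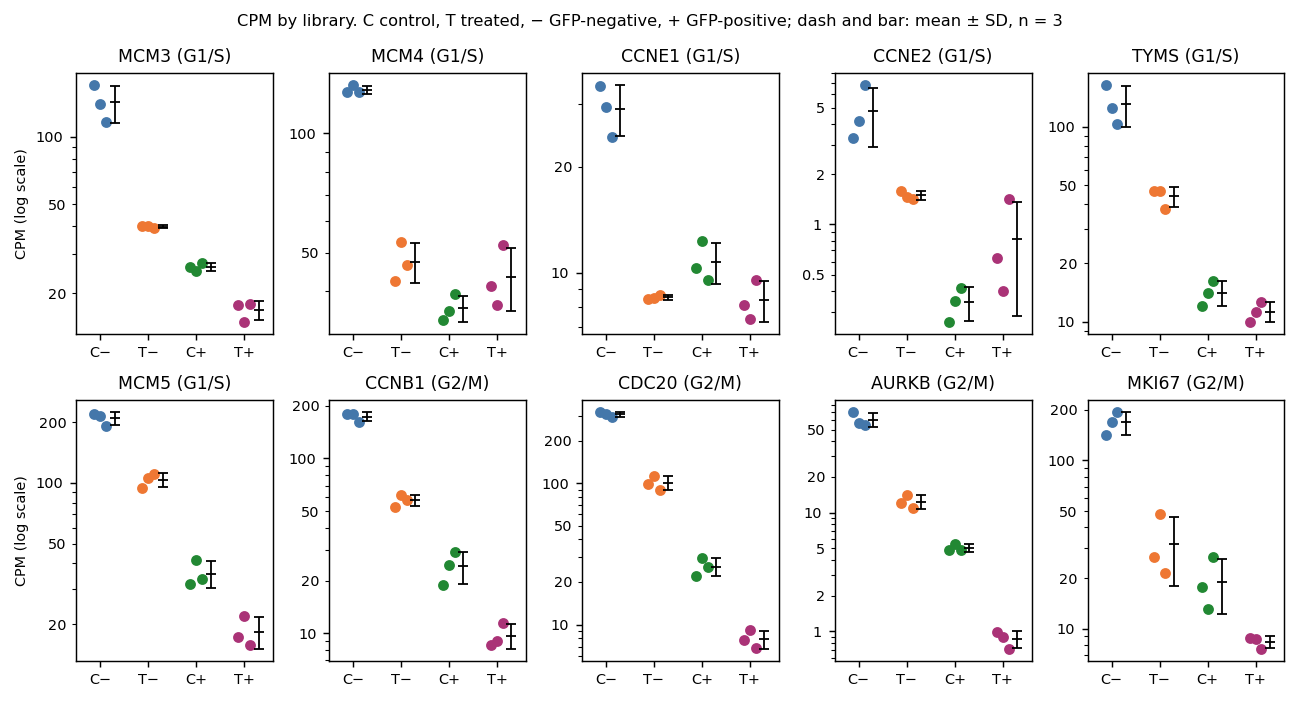
Each panel plots the CPM of a gene (log scale) in the 12 libraries, with points in the order of replicates 1 to 3 and the mean ± SD (n = 3) beside them; C is control, T treated, - GFP-negative and + GFP-positive. MCM4 and CCNE1 drop from C- to T- and overlap between C+ and T+, while CDC20 and AURKB drop by similar log2 amounts in each fraction.

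Among treated cultures the fractions still differed for most genes. In treated cells 40 of 49 genes tested were DEGs lower in GFP-positive cells, 15 of 23 G1/S and 25 of 26 G2/M genes, against 13.7% of all 15416 genes tested, with medians of -1.79 and -2.29 and 0.05 for all genes. None was higher (10.0% of all genes), at an unadjusted p under 0.05 or by DESeq2 either. The G2/M gene not called was CKAP2, a spindle protein (-0.54 ± 0.21, adjusted p = 0.046). The largest differences were those of AURKB (-3.81 ± 0.26, adjusted p = 2.4e-07), CDC20 (-3.65 ± 0.19, adjusted p = 3.7e-08), CDC45 (-3.59 ± 0.24, adjusted p = 2.6e-07) and BIRC5 (-3.52 ± 0.17, adjusted p = 2.3e-08). The GFP-positive level was a median of 29.9% of that in GFP-negative cells for G1/S genes and 21.3% for G2/M genes, from 8.18% ± 1.73 for CDC45 to 119% ± 30.99 for CDC25A and from 7.04% ± 1.04 for AURKB to 67.4% ± 14.1 for CKAP2. CCNE1 was at 97.96% ± 11.5 and MCM4 at 93.1% ± 21.9. This comparison and the one in solvent share no library, but each shares libraries with the treatment comparisons, so they are not separate evidence.

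The balance of the classes was described as the mean log2(CPM + 0.5) of the 24 G1/S genes minus that of the 26 G2/M genes in a library, with no test. In control GFP-negative cells it was 0.17, 0.03 and -0.17, and in treated GFP-negative cells 0.11, -0.10 and 0.16. In control GFP-positive cells it was 0.58, 0.55 and 0.31, and in treated GFP-positive cells 0.73, 0.74 and 0.89. The GFP-negative groups overlapped, at 0.01 ± 0.17 and 0.06 ± 0.14 (SD, n = 3), and the GFP-positive groups did not, at 0.48 ± 0.15 and 0.79 ± 0.09. GFP-positive libraries were higher than GFP-negative ones throughout. Leaving out E2F8, the 1 gene with a mean under 1 CPM and near the limit of counting in GFP-positive cells, moved the group means to 0.22, 0.28, 0.68 and 0.97, in the order given, and kept that order.

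**Figure D5:**
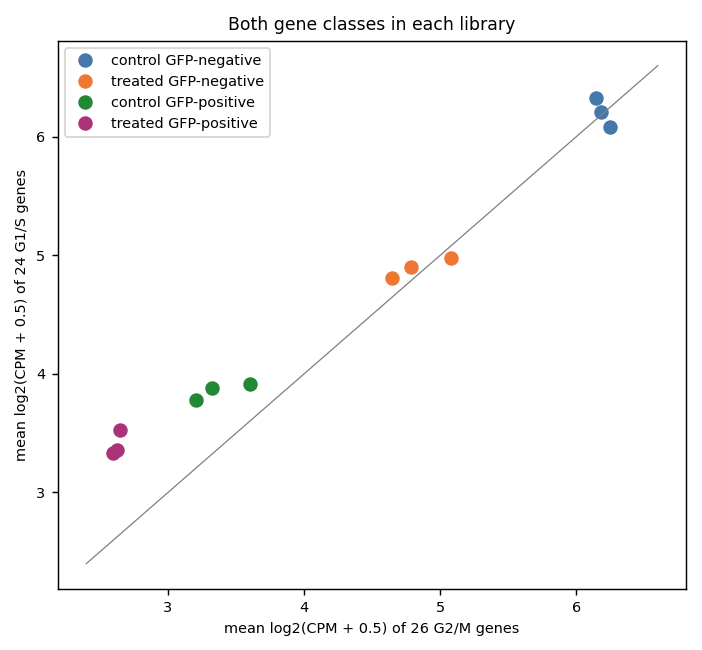
Each point is a library, with the mean log2(CPM + 0.5) of the 26 G2/M genes on the horizontal axis and of the 24 G1/S genes on the vertical axis, colored by group, and equal means on the diagonal. The control GFP-negative libraries lie at the top near the diagonal, the treated GFP-negative libraries lie lower along it, and the GFP-positive libraries lie above it with the treated ones lowest.

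Other genes of the same machinery were described from 3 lists. Over all genes tested, 9.75% were lower and 8.59% higher in treated GFP-negative cells, and 11.2% lower and 12.8% higher in treated GFP-positive cells. Of 50 other replication genes, 19 fell and none rose in GFP-negative cells (median log2 fold change -0.83; 2 were higher at an unadjusted p under 0.05), and of 59 other mitosis genes tested 33 fell and none rose (median -1.08; none higher at an unadjusted p under 0.05). The largest falls were those of UHRF1, a partner of DNA methyltransferase at the fork (-2.39 ± 0.24, adjusted p = 0.00013), TK1, thymidine kinase (-2.11 ± 0.17, adjusted p = 4.5e-05), and the mitotic kinesin KIF18B (-2.42 ± 0.21, adjusted p = 6.5e-05). In GFP-positive cells 5 of 50 replication genes rose and 4 fell (median -0.03), both below the shares over all genes, and 4 of 57 mitosis genes rose, again below the share over all genes, and 13 fell (median -0.31). TK1 (-2.24 ± 0.25, adjusted p = 3.9e-09), UHRF1 (-1.85 ± 0.28, adjusted p = 8.9e-07) and ASF1B, a histone chaperone (-1.42 ± 0.27, adjusted p = 3.6e-05), fell there as well. Of the genes with the next largest falls, SPC24, of the kinetochore, gave -2.29 ± 0.32, adjusted p = 0.00072 in GFP-negative and -1.69 ± 0.32, adjusted p = 4.4e-05 in GFP-positive cells, KIF20A, a kinesin of cytokinesis, -2.23 ± 0.20, adjusted p = 7.4e-05 in GFP-negative cells and PIMREG -1.71 ± 0.23, adjusted p = 1.4e-07 in GFP-positive cells. The genes that rose in GFP-positive cells included POLE3, a small subunit of DNA polymerase epsilon (1.29 ± 0.18, adjusted p = 1.7e-07), USP1, a deubiquitinase that acts on PCNA (1.08 ± 0.21, adjusted p = 5.5e-05), KIF20B, a kinesin (1.27 ± 0.33, adjusted p = 0.0015), and CENPK, of the kinetochore (1.09 ± 0.34, adjusted p = 0.0081). HMGB2, a chromatin protein of dividing cells, rose from 47.1, 28.6 and 33.4 to 181, 228 and 177 CPM (2.50 ± 0.19, adjusted p = 2.1e-13), and FEN1, the flap endonuclease, from 28.8, 22.8 and 26.9 to 43.3, 47.5 and 65.5 CPM (1.07 ± 0.19, adjusted p = 1.2e-05). Each treated GFP-positive library was above every control one for HMGB2 and FEN1.

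The interaction was higher for 7 of the 50 other replication genes (median 0.67), 4 of 59 other mitosis genes (median 0.72) and 3 of 34 genes that control entry to and exit from the cycle (median 0.11), against 0.968% of all genes, and lower for none of the 3 lists (1.22% of all genes), also at an unadjusted p under 0.05. In solvent, 39 of 50 replication and 56 of 59 mitosis genes were lower in GFP-positive cells (medians -1.81 and -2.96, against 15.3% of all genes) and none was higher as a DEG; at an unadjusted p under 0.05, 1 replication gene was higher. In treated cells the counts were 21 of 50 and 47 of 57 (medians -0.75 and -1.99, against 13.7% of all genes), none of them higher as a DEG, with 2 and 1 higher at an unadjusted p under 0.05.

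Of the 34 genes of entry and exit, 4 rose and 5 fell in GFP-negative cells (median 0.02), and 7 of 33 tested rose and 2 fell in GFP-positive cells (median 0.18). Over all genes, 8.59% rose and 9.75% fell in GFP-negative cells and 12.8% rose and 11.2% fell in GFP-positive cells, and nothing is read from these few genes for the list as a whole. CDKN1A, the p21 inhibitor of CDKs, rose in each fraction, from 92.8, 82.8 and 60.8 to 155, 183 and 185 CPM in GFP-negative (1.12 ± 0.18, adjusted p = 0.0017) and from 26.2, 29.6 and 20.4 to 79.7, 91.4 and 74.01 CPM in GFP-positive cells (1.76 ± 0.18, adjusted p = 5e-10). BTG1 (1.13 ± 0.15, adjusted p = 0.00062), an antiproliferative factor, CCNG1 (1.18 ± 0.22, adjusted p = 0.003), a p53 target, and E2F7 (1.25 ± 0.27, adjusted p = 0.0063), a repressor E2F, also rose in GFP-negative cells. The kinase WEE1, which restrains CDK1, rose in GFP-positive cells from 8.69, 7.35 and 9.13 to 31.9, 27.8 and 35.5 CPM (1.99 ± 0.20, adjusted p = 2.3e-10), and CCND2, cyclin D2, from 22.3, 14.3 and 18.2 to 79.97, 79.2 and 61.9 CPM (2.08 ± 0.19, adjusted p = 3.1e-11). CCND1, cyclin D1, was lower in each fraction but under the fold limit (-0.998 ± 0.18, adjusted p = 0.0028 in GFP-negative and -0.90 ± 0.19, adjusted p = 0.00017 in GFP-positive cells), and RB1 was not called in either (0.48 ± 0.37, adjusted p = 0.35 and 0.76 ± 0.20, adjusted p = 0.0018). CDKN1C, the p57 inhibitor, fell in GFP-positive cells from 0.858, 0.988 and 1.12 to 0.3904, 0.431 and 0.5001 CPM (-1.09 ± 0.43, adjusted p = 0.034). PKMYT1, a kinase that holds CDK1 inactive, fell in each (-1.51 ± 0.22, adjusted p = 0.00085 and -1.27 ± 0.28, adjusted p = 0.00028). CDKN2A and CDKN2C, which encode CDK inhibitors as CDKN1A does, were also among the 5 that fell in GFP-negative cells. In solvent, 13 of the 34 were lower in GFP-positive cells and 1 was higher (15.3% and 7.47% of all genes). Those lower included E2F7, PKMYT1 and CDKN2A. By the values above, CDKN1A was also lower in every control GFP-positive library than in every control GFP-negative one. The gene that was higher was CDKN2D, an inhibitor of CDK4 and CDK6. It was at 64.4, 48.3 and 41.6 CPM in GFP-negative and 133, 126 and 113 CPM in GFP-positive cells (1.16 ± 0.17, adjusted p = 0.00052). In treated cells 8 were lower and none higher (13.7% and 10.0% of all genes), with 5 higher at an unadjusted p under 0.05.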

How the data were processed

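RNA-seq counts of 12 libraries were analysed. Per the study's methods, the authors sequenced stranded mRNA libraries as single-end reads, concatenated lanes and used HISAT2 with hg38 and an Ensembl GRCh38 gene annotation, whose release the methods name, for mapping; the submitters' processing notes also name featureCounts, and the versions of HISAT2 and featureCounts and the strand setting of the counting are not given in the sources used here. The deposited values are raw counts per gene, whole numbers named by gene symbol, and 0 columns of per-sample values were left unused. Of the 50 genes, 14 share exon bases with another counted gene and are less certain, 11 of them with a gene on the other strand, where the unstated strand setting matters, and 5 with a gene on the same strand.

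The main test was edgeR's quasi-likelihood F-test (edgeR 4.0.16, limma 3.58.1, R 4.3.3) with TMM scaling, filterByExpr (minimum count 10, minimum total 15) and Benjamini-Hochberg adjustment over all genes tested, 5 comparisons in all, with only the libraries compared in each fit and all 12 in the interaction. DEGs had a fold change of 2 or more and an adjusted p under 0.05, the limits the study used with DESeq2; DESeq2 1.42.0 was an alternative here. SE is the log2 fold change divided by the square root of F. Alternatives were no filter, a filter of 10 counts in each library, scaling by RLE or by library size alone, a fit of all 12 libraries, glmTreat, a replicate block and each library left out. Scripts were tested on simulated data. Positions and MANE lengths came from GENCODE 44, which is not the authors' annotation, and promoters from RefSeq (GRCh38.p14); figures were drawn with matplotlib 3.10.9.

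The 50 genes and the lists were chosen with earlier results of these data known. The named genes were, per comparison and class, up to 4 called genes with the largest change, non-overlapping groups and a mean of 1 CPM or more, any called against its class, 9 genes always given (MKI67, TOP2A, PCNA, MCM2, CCNB1, CCNB2, CCNE1, CCNE2 and CDK1), up to 3 per list and direction, and CDKN1A, CCND1, CCND2, CDKN1C and RB1; others were named after their values were seen. No pair of libraries agreed within counting noise. Libraries of the same treatment and number were read as sorts of the same culture, which the titles do not state. How they deviated from their group means was correlated, at 0.20 to 0.56 over 11136 genes in all 6 pairs. GFP-positive and GFP-negative libraries of the same treatment but unlike number were at -0.60 to 0.25. The ranges overlapped. Deviations from a group mean cancel out within the group, so positive values at like numbers pull down those at unlike numbers. The contrast is therefore partly fixed by the calculation. Treated and control libraries share only a number.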

Additional observations from a re-analysis of the deposited data

Results flagged for a closer look

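The response to cis-chlordane differed between the sort fractions by the interaction test (edgeR, adjusted p under 0.05) for 8 of the 50 genes, given as the log2 response in GFP-positive cells minus that in GFP-negative cells: MCM4 at 1.72, CCNE1 at 1.43, MCM3 at 1.21, MCM7 at 1.12, MCM6 at 1.06, TYMS at 1.26, CCNE2 at 2.93 and CENPE at 1.50. Over all 16226 genes tested, 0.968% were higher and 1.22% lower by this test. It was also higher for 7 of 50 other replication genes, 4 of 59 other mitosis genes and 3 of 34 genes of entry and exit. Up to 3 of each list, 9 genes in all, are named here. Of other replication genes these were BLM, a helicase of recombination repair, at 2.14, POLE2, a subunit of DNA polymerase epsilon, at 1.94 and FEN1 at 1.61. Of other mitosis genes they were HMGB2 at 2.33, KIF20B, a mitotic kinesin, at 2.12 and KIF23, a kinesin of the midzone, at 1.61. Of the genes of entry and exit they were CDKN2C, an inhibitor of CDK4 and CDK6, at 1.92, CCND2 at 1.43 and WEE1 at 1.37. All 17 values are positive, and these genes were picked because the test called them. HMGB2, WEE1, CCND2, FEN1, KIF20B and CCNE2 were DEGs higher in treated GFP-positive cells, where HMGB2 rose from 47.1, 28.6 and 33.4 to 181, 228 and 177 CPM against 293, 169.5 and 166 and 215, 248 and 211 CPM in GFP-negative cells. BLM was at 15.1, 10.2 and 16.98 against 3.87, 4.84 and 6.06 CPM in GFP-negative and 2.01, 1.95 and 2.22 against 3.42, 3.73 and 2.34 CPM in GFP-positive cells.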

How the results depend on the processing

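Depth limits the genes of GFP-positive cells most: E2F8 had at most 6 counts and CCNE2 at most 54 in a GFP-positive library. Each group holds 3 libraries of 1 stem cell line, and the GFP-negative fraction is a mixture. Library size alone in place of TMM raised the median of all genes from 0.03 to 0.14 in GFP-positive cells, from 0.05 to 0.22 between fractions in treated cells and from -0.05 to 0.20 for the interaction, where the share of calls that were lower over all genes went from 55.8% to 24% (31.1% with at least 10 counts in every library, 49% by DESeq2, 45.9% with RLE scaling, and between 30.6% and 58.8% with a library left out). Between fractions in treated cells that share went from 57.9% to 44.3%.

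The count of the 50 genes that fell in GFP-negative cells was 19 with glmTreat in place of 40 (366 in place of 1512 over all genes), and 36 to 40 with a library left out. In GFP-positive cells glmTreat gave 3 lower in place of 15 (728 in place of 1716 over all genes). The count higher, 1 at first, was 0 with at least 10 counts in every library, with DESeq2 and with glmTreat, and 0 to 1 with a library left out. The interaction called 8 genes higher at first, where 157 of all 16226 genes were. It called 18 with DESeq2 (407 of all 15422 genes), 12 with library size alone (266 of 16226) and 3 to 9 with a library left out (68 to 212 over all genes). Only 3 or 4 were left without control GFP-negative replicate 2, any control GFP-positive library, or treated GFP-negative replicate 1 or 3. With genes of at least 1 CPM only, the class balance was 0.22, 0.28, 0.68 and 0.97 in control and treated GFP-negative and control and treated GFP-positive cells. The replicate block raised the interaction from 8 to 21 genes (157 to 519 higher over all genes), and with it the counts of the other comparisons, 40 lower, 15 lower and 1 higher, 49 lower and 40 lower, were the same. Treated and control libraries of the same number correlated at -0.05 to 0.44 in GFP-negative and -0.08 to 0.29 in GFP-positive cells, so that block there rests on a number only.

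Signs that turned were those of log2 values near 0. With a library left out, PCNA in GFP-positive cells ran from -0.29 to 0.026, RB1 between fractions in solvent from -0.33 to 0.59, CCNE1 between fractions in treated cells from -0.14 to 0.052, CCND2 there from -0.15 to 0.051, and in the interaction CCND1 ran from -0.094 to 0.27 and RB1 from -0.34 to 0.57. RB1 in solvent was -0.0039 with at least 10 counts in every library, CCNE1 and CCND2 in treated cells were 0.16 and 0.13 with library size alone, CCNE1 was 0.011 with no filter, and CCND1 in the interaction was -0.00037 with no filter.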
